A study of Mus musculus with 42 samples.

Results

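The Argonaute family of the mouse consists of Ago1, Ago2, Ago3 and Ago4, and their mRNAs were followed here through both gene count tables of an RNA immunoprecipitation sequencing (RIP-seq) study of Tnrc6a. The members were the rows with those 4 symbols, 4 of 18825 rows in experiment 1 and 4 of 19866 rows in experiment 2, and all 4 passed the filter on low counts in both experiments. All groups were mouse embryonic stem cells of 129S6/SvEvTac origin that carry the yGlob GFP_5xT71BS reporter and a stably transfected FLAG-Cas9::T2A::Blasticidin construct, grown with LIF on gelatin. Untagged cells have no further allele named, tagged cells carry HA-AVI-Tnrc6a, and the Trim71KO and Ago2KO cells carry HA-AVI-Tnrc6a together with Trim71-/- or Ago2-/-, the last in experiment 2 only. RNA was sequenced from the lysate (input) and from anti-HA beads (IP) of dishes grown in triplicate, giving 42 libraries in 14 groups of 3. The labels do not say whether a line is 1 clone or which part of a gene was removed, and p-values measure the spread between these dishes.

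Argonaute proteins bind small RNAs such as microRNAs and use them as guides to target mRNAs. They recruit GW182 proteins, which in mammals are Tnrc6a, Tnrc6b and Tnrc6c, and these bring in the deadenylation machinery that represses and degrades the target. All 4 mouse Argonautes load microRNAs, while Ago2 is the family's main slicer, the enzyme that cuts a perfectly matched target, and is required for development. Some Argonaute and GW182 mRNAs are themselves predicted microRNA targets, so that the mRNA of a silencing protein can be bound by its own machinery.

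In the RefSeq annotation of GRCm38.p6, the build that the submitters' processing notes name as GRCm38, 3 of the genes form a cluster. Ago3 lies at chr4:126326994-126431670, Ago1 at chr4:126435012-126468707 and Ago4 at chr4:126489487-126533586, all on the minus strand. Gaps of 3341 bases and 20779 bases separate Ago3 from Ago1 and Ago1 from Ago4. Ago2 lies apart, at chr15:73101625-73184947. The proximal promoters of the clustered genes are shown because these neighbours had very different RNA levels. RefSeq's GRCm38.p6 promoter table holds 2 starts for Ago1 and 1 each for Ago3 and Ago4, and these starts lie inside the gene intervals given above, by 2128 bases for Ago3, 124 and 76 bases for Ago1 and 128 bases for Ago4. The 100 bases before each listed start are printed 5′ to 3′ on the minus strand, with GC boxes (GGGCGG or CCGCCC) in capitals.
Ago3, chr4:126429543-126429642: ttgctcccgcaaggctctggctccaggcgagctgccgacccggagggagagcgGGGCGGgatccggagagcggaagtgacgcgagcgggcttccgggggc
Ago1 start 1, chr4:126468584-126468683: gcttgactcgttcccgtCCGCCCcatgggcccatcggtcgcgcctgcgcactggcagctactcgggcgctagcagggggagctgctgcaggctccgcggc
Ago1 start 2, chr4:126468632-126468731: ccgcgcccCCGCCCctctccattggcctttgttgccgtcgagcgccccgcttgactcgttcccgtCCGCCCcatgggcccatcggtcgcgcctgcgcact
Ago4, chr4:126533459-126533558: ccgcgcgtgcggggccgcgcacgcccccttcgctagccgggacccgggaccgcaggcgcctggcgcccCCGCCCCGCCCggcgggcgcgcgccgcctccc
The windows of both Ago1 starts overlap. Over the 250 bases before the start, searched on both strands, there were 2 GC boxes for either Ago1 start, 4 for Ago3 and 5 for Ago4, including the overlapping pair in the Ago4 sequence above. At least 1 GC box occurred in 32.7% of the 32851 promoter windows of the table. The TATA box letters TATAAA, found in 12.4% of windows, were in none of these 4 windows, and CCAAT, found in 33.8%, occurred once before each Ago1 start.

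Libraries held 12587257 to 23657840 counts in experiment 1 and 16296447 to 21026552 in experiment 2. Each of the 10 embryonic stem cell markers examined had a median above 1 CPM (counts scaled to a common library size) over the input libraries of either experiment. The summed level of primitive endoderm markers, a cell type that can arise in such cultures, was 58.3 to 76.5 CPM in tagged and 11.9 to 13.9 CPM in Trim71KO input of experiment 1. In experiment 2 it was 19.7 to 21.1 CPM in tagged, 7.77 to 9.39 in Trim71KO and 8.28 to 10.0 in Ago2KO input, and its part in the differences below was not tested. The 3 feeder fibroblast markers in the tables summed to 30.9 to 32.6 CPM in tagged and 67.0 to 71.8 CPM in Trim71KO input of experiment 1, and to 54.3 to 57.1 CPM in tagged, 58.5 to 62.1 in Trim71KO and 44.5 to 51.0 in Ago2KO input of experiment 2. The early differentiation markers summed to 16.6 to 17.2 CPM in tagged and 12.2 to 14.3 in Trim71KO input of experiment 1, and to 24.9 to 28.9 CPM in tagged, 21.2 to 23.8 in Trim71KO and 29.8 to 31.4 in Ago2KO input of experiment 2. The stem cell markers summed to 6783 to 7396 CPM in tagged and 7749 to 7915 in Trim71KO input of experiment 1, and to 7451 to 7656 CPM in tagged, 8518 to 8774 in Trim71KO and 8432 to 8532 in Ago2KO input of experiment 2. In none of these 4 lists did the knockout libraries overlap the tagged ones, and the part of these shifts in the results was likewise not tested. The tagged input libraries of experiment 1 were widely spread for Ago2, at 357.5, 178.9 and 254.9 CPM in replicates 1, 2 and 3. Trim71 RNA was higher in Trim71KO than in tagged input (log2 change 0.23 and 0.42 in experiments 1 and 2), so its level does not check the Trim71KO label, and Trim71KO below means the libraries labelled so.

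Ago2 was the most abundant Argonaute mRNA per kilobase of gene length in every input group but Ago2KO, followed by Ago1, Ago3 and Ago4. The gene lengths in the count tables were 8120 bases for Ago1, 14031 for Ago2, 16571 for Ago3 and 6947 for Ago4. In tagged input of experiment 2, Ago2 stood at 25.1 ± 2.48 CPM per kilobase (SD, n = 3). Ago1, at 11.6 ± 1.11 CPM per kilobase, was below it in each library, and Ago3 was at 1.12 ± 0.0183. Ago4 was at 0.172 ± 0.0289 CPM per kilobase, on 20 to 26 counts a library. The same order held in untagged and Trim71KO input of both experiments and in tagged input of experiment 1, where neighbours in the order did not overlap between libraries of a group. The 4 mRNAs together made up between 0.0256% and 0.0611% of all input counts.

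**Figure D1:**
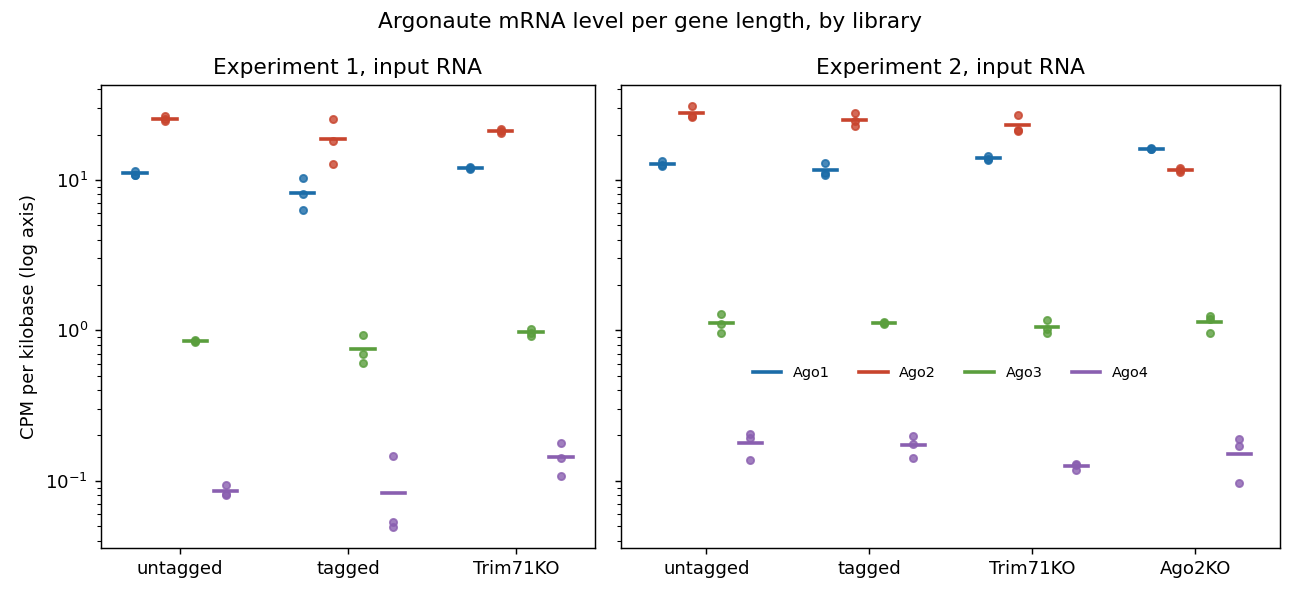
Level of each Argonaute mRNA in input RNA, in CPM per kilobase of gene length on a log axis, for every library (points) with the mean of 3 (lines), by genotype in experiments 1 and 2. Ago2 is the highest in every group except Ago2KO, where Ago1 (16.1) lies above Ago2 (11.6), and Ago4 is the lowest throughout.

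Ago2KO cells answered whether the other Argonaute mRNAs differed where Ago2 was disrupted. Among the 4 members, 2 were called at an adjusted p under 0.05, Ago2 lower and Ago1 higher, in a comparison where 6.96% of all genes were called, 4.38% higher and 2.57% lower. Ago2 stood at 390.2, 321.2 and 347.1 CPM in the 3 tagged input libraries and at 157.5, 162.4 and 167.0 CPM in Ago2KO, so that every Ago2KO library was below every tagged one. The difference was -1.12 on the log2 scale (SE 0.10, edgeR adjusted p 2.52e-08), which left 0.46 of the tagged level. In bulk RNA, less mRNA per cell and fewer cells with the mRNA cannot be told apart.

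Ago1 mRNA rose 1.39-fold in Ago2KO input. It stood at 104.3, 87.31 and 90.53 CPM in tagged input and at 132.3, 130.5 and 129.7 CPM in Ago2KO, again without overlap (log2 change 0.48, SE 0.11, edgeR adjusted p 0.00597). The call held in each of the 6 fits that left out 1 library, with log2 changes of 0.43 to 0.54. Ago3 stood at 18.8, 18.2 and 18.58 CPM in tagged and 15.99, 19.65 and 20.64 CPM in Ago2KO input, and its groups overlapped (log2 change 0.02, SE 0.12, edgeR adjusted p 0.955). Ago4 had 20, 26 and 25 counts in tagged and 12, 26 and 27 counts in Ago2KO input (log2 change -0.16, SE 0.30, edgeR adjusted p 0.832), a depth at which a change of the size seen for Ago1 was not detectable.

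Per gene length, the rise of Ago1 was smaller than the loss of Ago2. The mean level of Ago2 fell by 13.6 CPM per kilobase and that of Ago1 gained 4.53, or 33.4% of the loss, while Ago3 gained 0.014. The summed level of the 4 mRNAs went from 38.0 ± 3.57 to 29.0 ± 0.363 CPM per kilobase (SD, n = 3), which is 23.8% lower (exact permutation test, two-sided p 0.1, the smallest that 3 against 3 allows). This sum still counts the Ago2 RNA of Ago2KO cells, at 11.6 CPM per kilobase. Since the labels do not say which part of Ago2 was removed, whether that RNA encodes Ago2 protein is not known here. The order of the leading pair turned around. Ago2 exceeded Ago1 2.17-fold in tagged input, and Ago1 exceeded Ago2 1.39-fold in Ago2KO input. As a share of the summed level, Ago1 went from 30.5% ± 0.42 to 55.6% ± 1.3 and Ago2 from 66.1% ± 0.54 to 39.9% ± 0.67, without overlap (exact permutation p 0.1 for each). Ago3 went from 2.95% ± 0.22 to 3.90% ± 0.47 of the sum (exact permutation p 0.1), beside a level of its own that did not differ detectably.

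**Figure D2:**
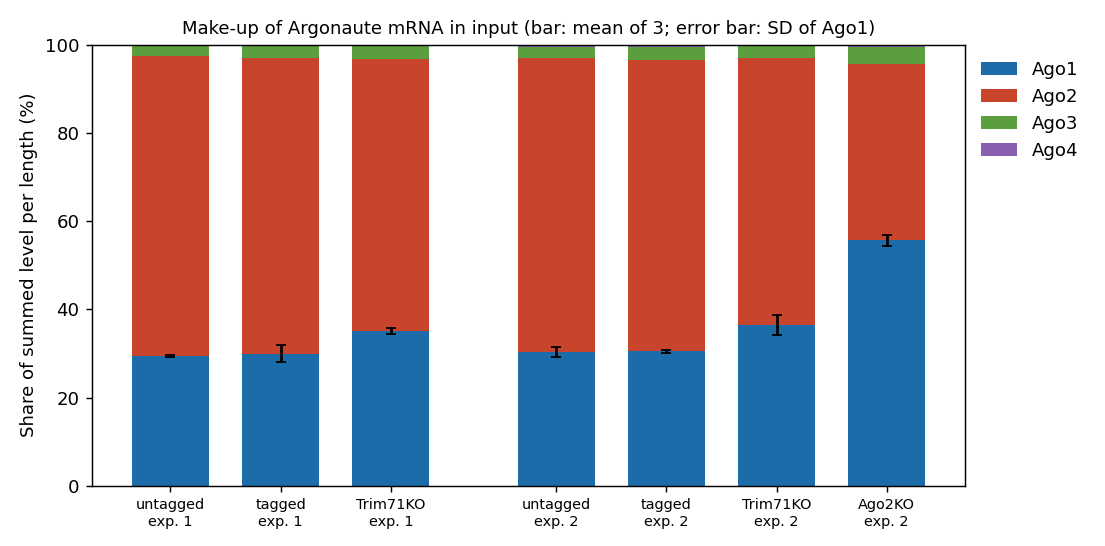
Share of each Argonaute mRNA in the summed level per gene length in input RNA, in percent, as the mean of 3 libraries per genotype and experiment, with the SD of the Ago1 share as the error bar. Ago1 holds 29.5% to 36.5% of the sum in all groups but Ago2KO, where it holds 55.6%.

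Trim71 is a stem cell RNA-binding protein that silences its own set of mRNAs, and the Trim71KO comparison asks how the Argonaute mRNAs differ where it is disrupted. In input of experiment 1, 1 of the 4 members was called, Ago1 higher, where 34% of all genes were called. Ago1 stood at 83.81, 50.98 and 65.18 CPM in tagged and at 97.72, 95.76 and 98.9 CPM in Trim71KO input, with no overlap (log2 change 0.55, SE 0.14, edgeR adjusted p 0.00343). Untagged input of experiment 1 had 88.05, 87.96 and 93.0 CPM, also above every tagged library. Trim71KO was not tested against untagged cells. The same tagged libraries enter the tag comparison and the enrichment changes below, so these results are not independent. In experiment 2, where 27.2% of genes were called, edgeR called 0 of 4 members and gave 1 an unadjusted p under 0.05, and DESeq2 called 0. Ago1 stood there at 104.3, 87.31 and 90.53 CPM in tagged and 109.9, 111.0 and 116.7 CPM in Trim71KO input (log2 change 0.26, SE 0.11, edgeR adjusted p 0.0755). With the replicate number as a block, which pairs these groups, its adjusted p was 0.0205. The difference of Ago1 between the experiments was -0.29 (SE 0.18, edgeR adjusted p 0.259, where 22.8% of genes differed), so the change was not shown to differ between them.

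Ago2 did not change detectably with the Trim71KO label. In experiment 1 it stood at 357.5, 178.9 and 254.9 CPM in tagged and 285.1, 296.9 and 304.9 CPM in Trim71KO input (log2 change 0.16, SE 0.17, edgeR adjusted p 0.497). This value rests on the spread among tagged libraries, since it was 0.43 without tagged input replicate 1 (edgeR adjusted p 0.041) and -0.041 without tagged input replicate 2. In experiment 2 the Ago2 log2 change was -0.12 (SE 0.10, edgeR adjusted p 0.39). For Ago3 the log2 changes were 0.37 in experiment 1 and -0.10 in experiment 2 (SE 0.15 and 0.12, edgeR adjusted p 0.0604 and 0.606). Without tagged input replicate 1 of experiment 1 its change was 0.54 (edgeR adjusted p 0.00925). Ago4 had values of 0.75 (SE 0.46, edgeR adjusted p 0.218) and -0.46 (SE 0.31, edgeR adjusted p 0.291), on 6 to 28 counts a library in these inputs, and the first was 1.44 without tagged input replicate 3 (edgeR adjusted p 0.0489). The share of Ago1 in the summed level was 35.1% in Trim71KO against 29.9% in tagged input of experiment 1 and 36.5% against 30.5% in experiment 2, and the libraries did not overlap in either (exact permutation p 0.1 for each). The summed level per length itself was 34.2 against 27.8 CPM per kilobase and 38.1 against 38.0 (exact permutation p 0.4 and 1).

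The tag alone went with a lower Ago1 level in experiment 1 and with no call in experiment 2. Of the 4 members 1 was called in experiment 1, beside 10.6% of all genes, and 0 in experiment 2, beside 1.39%, where edgeR gave 0 members with an unadjusted p under 0.05 and DESeq2 called 0. Ago1 stood at 88.05, 87.96 and 93.0 CPM in untagged input of experiment 1, above all 3 tagged libraries (log2 change -0.43, SE 0.14, edgeR adjusted p 0.0461). That call was lost with RLE size factors, in a fit of the compared groups alone, and without any 1 of untagged input replicate 1 (-0.42), untagged input replicate 2 (-0.42), untagged input replicate 3 (-0.39), tagged input replicate 2 (-0.26) or tagged input replicate 3 (-0.39). For Ago2 the difference in experiment 1 was -0.44 (SE 0.18, edgeR adjusted p 0.106), or -0.69 without tagged input replicate 1 (edgeR adjusted p 0.00643) and -0.22 without tagged input replicate 2 (edgeR adjusted p 0.506). In experiment 2 the differences were -0.13 for Ago1, -0.15 for Ago2, 0.0030 for Ago3 and -0.048 for Ago4.

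All 4 Argonaute mRNAs were recovered on anti-HA beads from tagged cells, in both experiments. Tag-specific enrichment, the log2 IP to input ratio in tagged cells minus that in untagged cells, was called higher for 4 of 4 members in experiment 1, where 28.1% of all genes were called higher, and for 4 of 4 in experiment 2, where 18.9% were. Ago1 had the highest value in both. It stood at 819.8, 776.7 and 991.7 CPM in tagged IP of experiment 1 and at 68.57, 63.19 and 73.97 CPM in untagged IP. Its tag-specific enrichment was 4.08 (SE 0.20, edgeR adjusted p 1.78e-14), or 16.9-fold. In experiment 2 the Ago1 level was 606.5, 497.2 and 413.0 CPM in tagged IP and 90.05, 92.19 and 83.0 CPM in untagged IP (enrichment 2.65, SE 0.15, edgeR adjusted p 3e-13), or 6.27-fold.

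Ago2 stood at 1024, 1266 and 1630 CPM in tagged IP of experiment 1 and at 245.5, 227.8 and 259.5 CPM in untagged IP (enrichment 2.86, SE 0.25, edgeR adjusted p 9.48e-10). In experiment 2 it was at 911.9, 817.0 and 755.9 CPM in tagged and 290.4, 313.1 and 254.7 CPM in untagged IP (enrichment 1.69, SE 0.14, edgeR adjusted p 1.79e-10). Tagged and untagged IP libraries did not overlap in either experiment. In input Ago2 had exceeded Ago1 per length, while in tagged IP their levels per length overlapped. In experiment 2 these were 62.3 ± 12 CPM per kilobase for Ago1 and 59.0 ± 5.6 for Ago2 (SD, n = 3), and in experiment 1 106 ± 14 and 93.1 ± 21.8, with overlapping libraries in both. Within libraries, Ago1 was above Ago2 in each tagged IP library of experiment 1 and in replicates 1 and 2 of experiment 2. In replicate 3 of experiment 2 it was below, at 50.9 against 53.9 CPM per kilobase. This order was not tested.

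Ago3, whose gene lies next to Ago1, had the lowest enrichment of the family in both experiments. It stood at 43.03, 48.73 and 56.67 CPM in tagged and 17.09, 22.05 and 19.45 CPM in untagged IP of experiment 1 (enrichment 1.53, SE 0.21, edgeR adjusted p 1.42e-06). In experiment 2 the levels were 40.39, 32.12 and 30.4 CPM against 15.73, 15.93 and 14.83 CPM (enrichment 1.14, SE 0.17, edgeR adjusted p 6.29e-06). Ago4 rested on few reads but was clearly above the untagged beads. It had 36, 46 and 51 counts in tagged IP of experiment 1 against 4, 11 and 26 in untagged IP (enrichment 1.83, SE 0.64, edgeR adjusted p 0.017). In experiment 2 it had 71, 67 and 75 counts against 10, 28 and 16 (enrichment 2.13, SE 0.40, edgeR adjusted p 1.4e-04). Whether Ago3 and Ago4 differ from each other in enrichment was not tested. Set against each other in 1 fit of both experiments, tag-specific enrichment of Ago1 and Ago2 was lower in experiment 2, where 28.5% of genes differed. So were the IP to input ratios of Ago1, Ago2 and Ago3 in tagged cells (44.2% of genes) and in Trim71KO cells (20.1%), and that of Ago3 in untagged cells (5.51%), the last a call that was lost with library size alone.

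Untagged cells give the background of the beads. The IP to input ratio of untagged cells had log2 values of -0.39 for Ago1, -0.55 for Ago2, 0.47 for Ago3 and 0.69 for Ago4 in experiment 1, where 12.1% of genes and 2 of 4 members were called, Ago2 lower and Ago3 higher. The Ago2 call was lost in each fit without 1 untagged library (edgeR adjusted p 0.0633 to 0.133), and the Ago3 call in each of these but the one without untagged IP replicate 1. With IP and input paired by replicate number as a block, the Ago2 value of -0.55 had an edgeR adjusted p of 0.0531. With library size alone the Ago3 ratio was 0.078. Ago1, not called at -0.39 (SE 0.14, edgeR adjusted p 0.0682), was called with library size alone (-0.78, edgeR adjusted p 9.51e-05) and in a fit of the compared groups alone (-0.37, edgeR adjusted p 1.56e-04). In experiment 2, 1 member was called, beside 0.728% of genes. That was Ago2, at -0.46 (SE 0.10, edgeR adjusted p 0.0173), a call lost without untagged input replicate 2 (-0.38), untagged IP replicate 1 (-0.47) or untagged IP replicate 3 (-0.37). The enrichment of all 4 members in tagged cells is measured against these ratios.

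**Figure D3:**
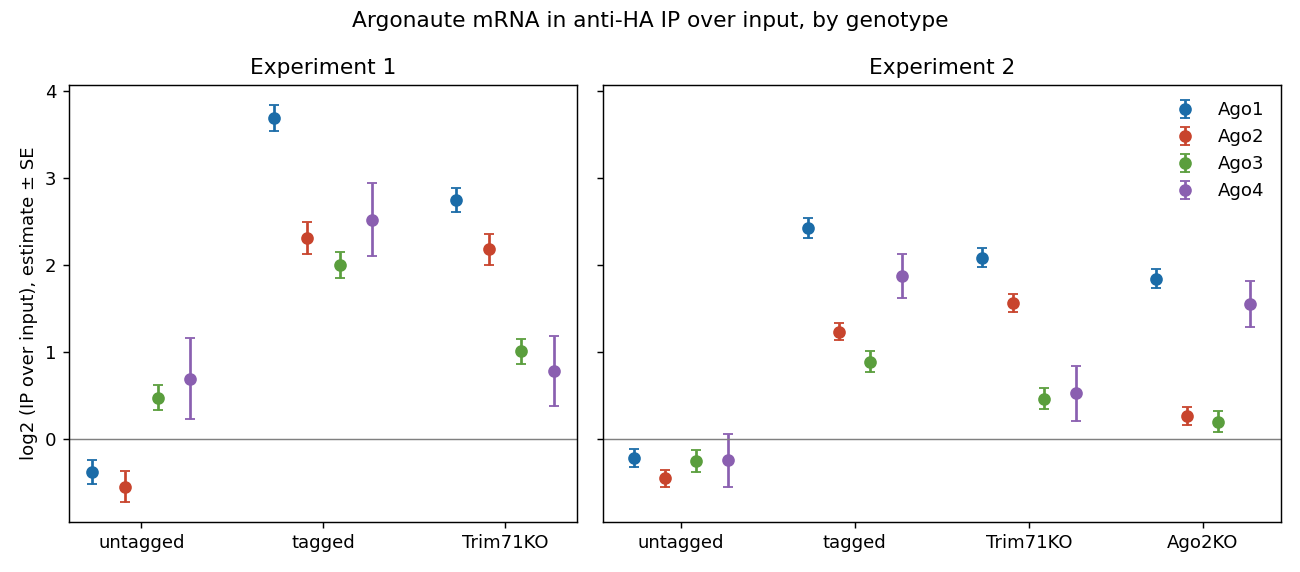
Log2 ratio of IP to input for each Argonaute mRNA, as the fitted estimate ± SE from 3 IP and 3 input libraries, by genotype in experiments 1 and 2. In tagged cells all 4 ratios are above 0, from 0.89 (Ago3, experiment 2) to 3.69 (Ago1, experiment 1), and in untagged cells they lie between -0.55 and 0.69.

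In Ago2KO cells 3 of the 4 Argonaute mRNAs had lower Tnrc6a enrichment than in tagged cells, in a comparison where 3.77% of genes were called lower. These were Ago2, Ago3 and Ago1, and the levels behind them differed. For Ago2 the IP level fell furthest, from 911.9, 817.0 and 755.9 CPM in tagged to 197.7, 210.9 and 175.1 CPM in Ago2KO IP, while its input level was 0.46 of that in tagged cells. Its enrichment changed by -0.97 (SE 0.14, edgeR adjusted p 5.44e-05). In Ago2KO cells the Ago2 IP to input ratio was 0.26 on the log2 scale (SE 0.10, edgeR adjusted p 0.0483, where 28.2% of genes were called) against 1.23 in tagged cells. Its call against input was lost with RLE size factors (0.23), library size alone (0.076), DESeq2 (0.23) and no filter on low counts (0.25). It was also lost without Ago2KO input replicate 1 (0.23), 2 (0.27) or 3 (0.28), and without Ago2KO IP replicate 1 (0.25) or 2 (0.21). The Ago2 IP level of Ago2KO cells was below the 254.7 to 313.1 CPM of untagged cells. Its mean input level was lower too, at 162.3 against 392.4 CPM. Relative to input the order was the other way, with log2 ratios of 0.26 in Ago2KO and -0.46 in untagged cells. Ago2KO was not tested against untagged cells.

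For Ago3 the lower enrichment came with a lower IP level at an input level that did not differ detectably. Ago3 stood at 40.39, 32.12 and 30.4 CPM in tagged IP and at 20.29, 24.93 and 19.36 CPM in Ago2KO IP, without overlap. Its enrichment changed by -0.69 (SE 0.17, edgeR adjusted p 0.0139), and the Ago2KO IP to input ratio of 0.20 (SE 0.12, edgeR adjusted p 0.243) was not distinguishable from 0. The background of the beads is not 0, since the Ago3 ratio in untagged cells of experiment 2 was -0.25 (SE 0.12). Ago2KO was not tested against untagged cells. The enrichment call was lost without Ago2KO input replicate 3 (-0.62, edgeR adjusted p 0.054) and without tagged IP replicate 1 (-0.57, edgeR adjusted p 0.053).

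For Ago1 the IP levels overlapped and the input level was the one that differed. Ago1 stood at 606.5, 497.2 and 413.0 CPM in tagged IP and at 566.9, 434.9 and 405.5 CPM in Ago2KO IP, while its input rose 1.39-fold as described above. Its enrichment changed by -0.58 (SE 0.15, edgeR adjusted p 0.0204), and the Ago2KO ratio still stood at 1.84 (SE 0.11, edgeR adjusted p 2.29e-13), or 3.59-fold over input. In a fit of the compared groups alone this call was lost (-0.61, edgeR adjusted p 0.132). It was also lost without tagged input replicate 2 (-0.53), tagged input replicate 3 (-0.56), Ago2KO input replicate 1 (-0.60), tagged IP replicate 1 (-0.44), Ago2KO IP replicate 2 (-0.53) or Ago2KO IP replicate 3 (-0.51), with adjusted p of 0.0518 to 0.0903.

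Ago4 kept an enrichment in Ago2KO cells that was not distinguishable from that in tagged cells. It had 58, 41 and 70 counts in Ago2KO IP against 12, 26 and 27 in input, a log2 ratio of 1.55 (SE 0.26, edgeR adjusted p 3.66e-05). The change from tagged cells was -0.33 (SE 0.37, edgeR adjusted p 0.816), an error that allows changes as large as those of Ago1 and Ago3. The members' share of all IP counts was 0.0578% to 0.0716% in Ago2KO against 0.113% to 0.131% in tagged cells.

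**Figure D4:**
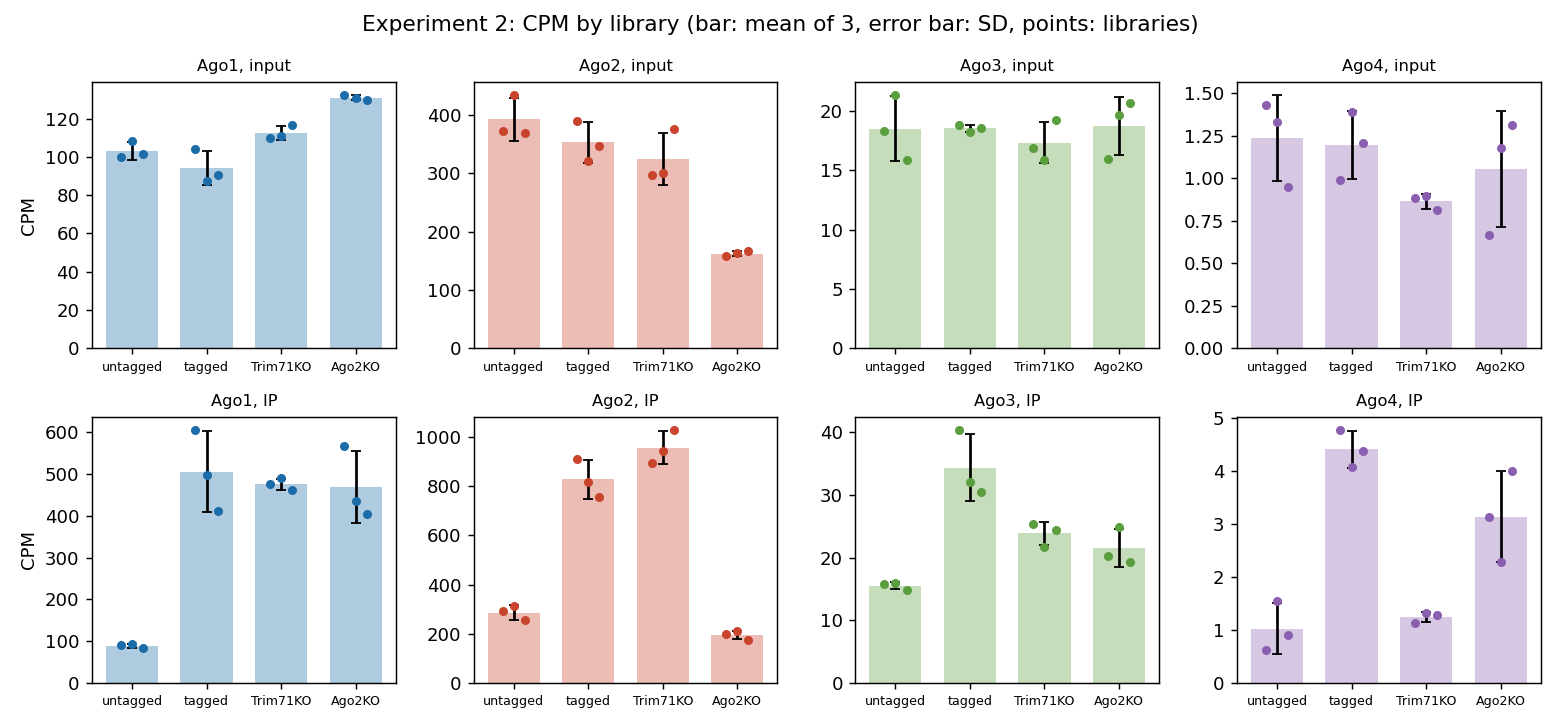
CPM of each Argonaute mRNA in every library of experiment 2, with the mean of 3 (bars, from 0) and the SD (error bars), in input (top row) and IP (bottom row) by genotype; each panel has its own scale. Ago2 is low in Ago2KO input and IP, Ago1 is high in Ago2KO input but overlaps tagged cells in IP, and Ago4 in Trim71KO IP (1.13 to 1.31 CPM) lies below tagged IP (4.07 to 4.77 CPM).

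In Trim71KO cells Ago1 and Ago3 had lower Tnrc6a enrichment in experiment 1, 2 of 4 members where 3.47% of genes were called lower. Ago1 stood at 819.8, 776.7 and 991.7 CPM in tagged and 761.5, 640.6 and 561.8 CPM in Trim71KO IP, with all Trim71KO libraries below the tagged ones. Its input level was higher than in the tagged input libraries, which were also below untagged input. The enrichment of Ago1 changed by -0.95 (SE 0.19, edgeR adjusted p 0.00338). Ago3 went from 43.03, 48.73 and 56.67 CPM to 38.1, 32.31 and 25.98 CPM in IP, again without overlap (enrichment change -0.997, SE 0.21, edgeR adjusted p 0.00458). Both calls held in each of the 12 fits that left out 1 library. In experiment 2, 0 of 4 members were called, where 1.49% of genes were called, although edgeR gave 4 members an unadjusted p under 0.05 (DESeq2 called 0). There the enrichment changes were -0.35 for Ago1 (SE 0.15, edgeR adjusted p 0.26) and -0.43 for Ago3 (SE 0.17, edgeR adjusted p 0.214). The differences between the experiments, 0.61 for Ago1 (SE 0.26, edgeR adjusted p 0.263) and 0.58 for Ago3 (SE 0.28, edgeR adjusted p 0.33), did not pass the test, which 0.0967% of genes did.

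Ago2 had no called change of enrichment in Trim71KO cells. In Trim71KO IP it stood at 1583, 1302 and 1130 CPM in experiment 1, overlapping the tagged libraries (enrichment change -0.13, SE 0.25, edgeR adjusted p 0.873). In experiment 2 it stood at 896.2, 945.1 and 1030 CPM against 911.9, 817.0 and 755.9 CPM in tagged IP (enrichment change 0.33, SE 0.14, edgeR adjusted p 0.239). The sign in experiment 1 was not settled, at 0.15 without tagged input replicate 2, 0.061 without tagged IP replicate 3 and 0.068 without Trim71KO IP replicate 3. Whether Ago2 changed differently from Ago1 or Ago3 was not tested.

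Ago4 had the most negative Trim71KO values of the family in both experiments, and neither passed the adjusted test. In IP of experiment 1 it had 36, 46 and 51 counts in tagged and 18, 32 and 19 in Trim71KO cells (enrichment change -1.74, SE 0.59, edgeR adjusted p 0.123). In experiment 2 it had 71, 67 and 75 counts in tagged and 17, 20 and 24 counts in Trim71KO IP, beside 20 to 26 counts in tagged and 16 to 18 counts in Trim71KO input (enrichment change -1.36, SE 0.41, edgeR adjusted p 0.1). IP libraries of tagged and Trim71KO cells did not overlap in CPM in either experiment. The IP to input ratio of Ago4, called in tagged cells at 2.52 and 1.88 (where 66.2% and 38.6% of genes were called), was 0.78 (SE 0.41, edgeR adjusted p 0.097) and 0.52 (SE 0.32, edgeR adjusted p 0.18) in Trim71KO cells (where 65.2% and 49.2% were), and the first passed in a fit of the compared groups alone (0.86, edgeR adjusted p 0.0285).

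**Figure D5:**
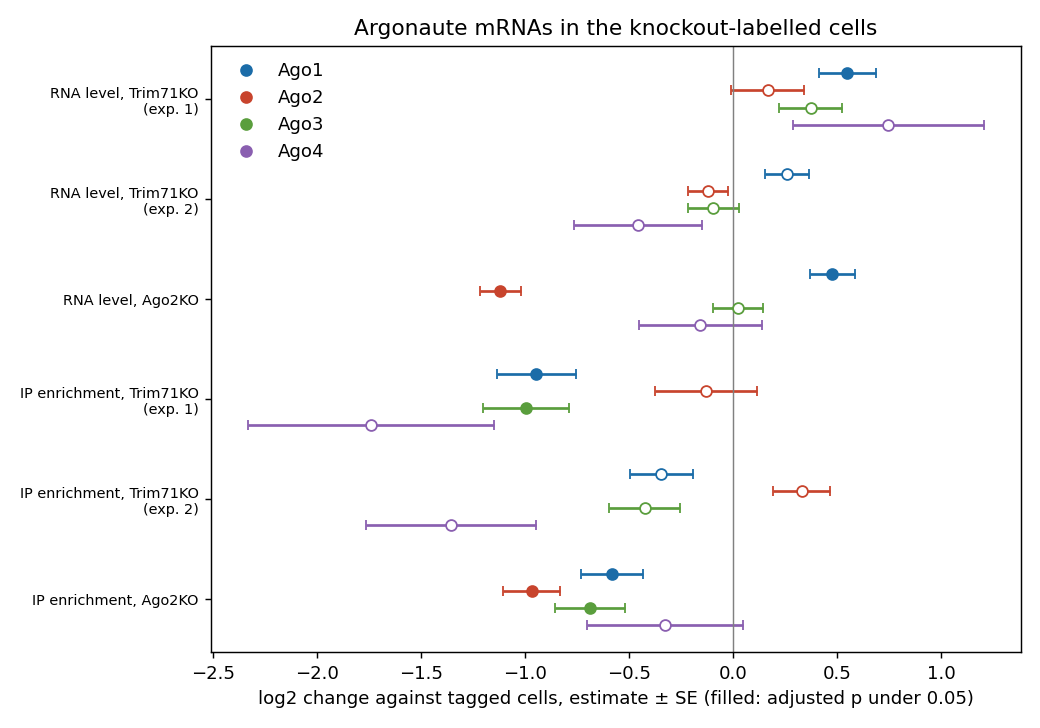
Log2 change of each Argonaute mRNA against tagged cells, as the fitted estimate ± SE from groups of 3 libraries, for RNA level in input and for IP enrichment in Trim71KO (experiments 1 and 2) and Ago2KO cells; filled points have an adjusted p under 0.05. Ago2 falls in both Ago2KO measures (-1.12 and -0.97), Ago1 RNA rises in Ago2KO (0.48) and Trim71KO of experiment 1 (0.55), and Ago4 has the widest errors.

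Both knockouts were set against the same tagged libraries, so they were also compared directly. In input, 1 of 4 members was called, beside 28.4% of genes. That was Ago2, 2.00-fold higher in Trim71KO than in Ago2KO (log2 1.00, SE 0.10, edgeR adjusted p 2.25e-08). Ago1 stood at 109.9, 111.0 and 116.7 CPM in Trim71KO and 132.3, 130.5 and 129.7 CPM in Ago2KO input, without overlap (log2 -0.22, SE 0.11, edgeR adjusted p 0.134). This value passed with library size alone (edgeR adjusted p 0.0498) and when only these groups were fitted (edgeR adjusted p 0.00842). In enrichment, 1 of 4 was called, beside 11.8% of genes, with Ago2 at 1.30 (SE 0.14, edgeR adjusted p 2.98e-07). Ago1 had a difference of 0.24 (SE 0.15, edgeR adjusted p 0.358), which passed without Ago2KO IP replicate 1 (0.40, edgeR adjusted p 0.0441). Ago3 had 0.26 (SE 0.17, edgeR adjusted p 0.374) and Ago4 -1.03 (SE 0.42, edgeR adjusted p 0.117).

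Genes whose products load, bind or modify Argonautes were followed as 1 list of 22. They comprised loading factors such as Dicer1, 6 chaperones of the Hsp90 system that opens Argonautes for small RNAs, partners such as Tnrc6b, the phosphorylation cycle of Csnk1a1, Ankrd52 and Ppp6c, and turnover and import factors. In tag-specific enrichment of experiment 1, 11 rose and 7 fell, where 28.1% of all genes were called higher and 28.8% lower, and the list's median log2 value was 0.39 against -0.10 over all genes. In experiment 2, 7 rose and 2 fell, where 18.9% of all genes were called higher and 8.77% lower, with a median of 0.14 against -0.031. Of the 6 chaperones, 6 were called lower in experiment 1 and 2 in experiment 2, beside those shares of 28.8% and 8.77%. Hsp90aa1, an Hsp90 itself, was at -1.17 in experiment 1 and at -0.20 in experiment 2, where it was not called (edgeR adjusted p 0.156), and Ptges3, the p23 cochaperone, at -0.65 and -0.26. Ankrd52, the regulatory subunit that guides the Ppp6c phosphatase to Argonaute, was at 4.94 and 3.96, Limd1, an Argonaute-binding LIM protein, at 2.76 and 1.81, and Tnrc6b at 2.74 and 1.83.

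In Ago2KO cells edgeR called 3 of the 22 lower in enrichment, where 3.77% of all genes were called lower, and these were the 3 genes of the phosphorylation cycle. Whether they differ from the rest of the list was not tested, and at that share few calls would be made among its other 19 genes, of which 4 had an unadjusted p under 0.05 and 0 were called. Ankrd52 changed by -1.75 (SE 0.16, edgeR adjusted p 8.74e-08), Ppp6c by -0.50 (SE 0.11, edgeR adjusted p 0.00652) and Csnk1a1, the kinase that phosphorylates Argonaute, by -0.43 (SE 0.10, edgeR adjusted p 0.00835). The median of the list was -0.075 against 0.0026 over all genes. In Ago2KO input 3 of the 22 rose and 0 fell by edgeR, where 4.38% of all genes were called higher and 2.57% lower. An unadjusted p under 0.05 was found for 7 of the 22, and the share of all genes below that value was not computed for any comparison. The 3 called were Ankrd52 (0.78, SE 0.12, edgeR adjusted p 7.2e-05), Mov10, a helicase found with Argonautes (0.43, SE 0.09, edgeR adjusted p 0.004), and Ppp6c (0.36, SE 0.08, edgeR adjusted p 0.00504). Ankrd52 thus had the pattern of Ago1 in input but not in IP, where its mean level went from 624.5 ± 142 to 319.0 ± 49.5 CPM (SD, n = 3). In Trim71KO enrichment 2 of the list fell in experiment 1, Tnrc6b (-1.20) and Ankrd52 (-0.82), where 3.47% of all genes were called lower. In experiment 2, where 1.49% of all genes were called, edgeR called 0 of the list, and 7 had an unadjusted p under 0.05. In Trim71KO input of experiment 1, 4 of the 22 rose, led by Mov10 (0.86), and 8 fell, where 16.5% of all genes were called higher and 17.4% lower. In experiment 2, 1 of the 22 rose, again Mov10 (0.80), and 1 fell, Tsnax (-0.19), fewer than the 13.5% and 13.7% over all genes.

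The Piwi genes, the germline clade of the Argonaute superfamily, had no call for recovery with Tnrc6a. Tag-specific enrichment was called lower for Piwil2 (-0.99) and Piwil4 (-0.81) in experiment 1, where 28.8% of all genes were called lower. It was called lower for Piwil1 (-1.55) in experiment 2, where 8.77% were, and for none of these 3 was it called higher. Piwil1 had few counts there, 47 to 85 in untagged IP (2.60 to 5.24 CPM) against 25 to 44 in untagged input. In input, Piwil4 fell in Trim71KO cells by 1.48 and 2.48 on the log2 scale in experiments 1 and 2 and in Ago2KO cells by 0.81, and it was higher in tagged than in untagged cells of experiment 2 (0.64). Of all genes, 17.4% and 13.7% were called lower in Trim71KO input of experiments 1 and 2, and 2.57% in Ago2KO input. In tagged against untagged input of experiment 2, 0.809% were called higher. Piwil2 fell in Trim71KO cells by 0.67 and 0.76. Piwil1 rose in Trim71KO cells of experiment 1 (log2 change 0.997, edgeR adjusted p 0.00886), where 16.5% of all genes were called higher. It was not called in Trim71KO cells of experiment 2 (-0.57, edgeR adjusted p 0.157).

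Across the 24 libraries of experiment 2, input and IP together, the genes most like each member were found by Pearson's r of log2 CPM among 12886 or 12887 genes. These values are descriptive, since the tag and the bead fraction move many genes at once. Ago1 was most like Zfx (r 0.993, and 0.970 over the 18 libraries of experiment 1), Tfb2m (0.993 and 0.976) and Hs6st1 (0.993 and 0.995). Ago2 was most like Prkci (0.957 and 0.731), Nectin2 (0.950 and 0.924) and Ap3s2 (0.942 and 0.953). Ago3 was most like Cd247 (0.927 and 0.982), Pou2f1 (0.922 and 0.984) and Purb (0.913 and 0.865), and Ago4 most like Homer1 (0.898 and 0.715), Plekha6 (0.896 and 0.812) and Col26a1 (0.892 and 0.747). Among the members themselves, Ago1 and Ago2 had an r of 0.984 in experiment 1 and 0.475 in experiment 2, the experiment that holds the Ago2KO libraries.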

How the data were processed

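RIP-seq and input libraries of 42 samples were analysed from the 2 tables of raw read counts per gene that the authors deposited, with RPKM values beside them in each table. The submitters' processing notes name bcl2fastq 2.20, STAR 2.7.3a and the build GRCm38 (mm10), and the gene length column refers to QuasR, per the file headers. How strand, overlapping genes and near-identical copies were counted is not given in the sources used here, so values of the paralogous Argonautes could share reads. The RPKM values the authors deposited served only as an alternative for levels per length. Shares within a library are the same with RPKM by construction, so this alternative could move only the summed levels. Libraries were grouped by their titles. In experiment 2 the columns headed untagged were matched to the samples titled Ctrl.

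Counts as deposited were tested with edgeR 4.0.16 (R 4.3.3; TMM, filterByExpr, quasi-likelihood F test). Each group had its own mean, and each experiment was fitted once with all its groups. The filter left 18772 and 19778 genes. A call needs an adjusted p under 0.05, by Benjamini and Hochberg's method over every gene that passed the filter, and SE is the size of the change over the root of F. Enrichment is the difference of log2 IP to input ratios between genotypes. CPM were scaled by TMM and divided by the tables' gene lengths to compare members. Differences between experiments came from 1 fit of all 42 libraries over 18620 genes. Shares and sums were compared by exact permutation of 3 against 3 libraries. Alternatives were RLE size factors, library size alone, no filter, DESeq2 1.42.0, a replicate block, fits of only the groups compared, and leaving out each library.

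Replicates of a group differed by more than sampling noise (chi-square per gene 2.87 to 64.1 over 42 pairs), so each library counted as 1 replicate. Same-numbered samples deviated together in all 3 pairs for tagged and Trim71KO libraries of experiment 2 (r 0.21 to 0.30 in input, 0.18 to 0.33 in IP), so the numbers pair those groups. They did so too for tagged input and IP of experiment 2 (r 0.105 to 0.184). Deviating together means an r above 0.1 in each of the 3 pairs. Other groups met this rule in part or not at all. Counting precision at this depth ignores duplicate molecules, since no molecular identifiers are stated.

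The members and the gene lists were chosen with earlier results of these data known. Named genes are the 4 members, Trim71, the Piwi genes, up to 3 called genes each way per comparison from the list of 22 Argonaute-linked genes, and the 3 genes most correlated with each member among those with a mean log2 CPM of at least 2. The fit was also run on simulated data in which only a set of genes in Trim71KO IP was changed. That simulation held no wide difference between input and IP like that of the real libraries, so it does not check the fit there.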

Additional observations from a re-analysis of the deposited data

Results flagged for a closer look

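Enrichment of several Argonaute mRNAs on anti-HA beads, relative to input, was lower in experiment 2 than in experiment 1. The difference itself was tested in 1 fit of all 42 libraries. Tag-specific enrichment differed by -1.536 for Ago1 (SE 0.261, edgeR adjusted p 5.1e-05) and by -1.277 for Ago2 (SE 0.298, edgeR adjusted p 0.00144), where 28.5% of all genes differed. The differences of -0.49 for Ago3 (edgeR adjusted p 0.196) and 0.20 for Ago4 (edgeR adjusted p 0.874) did not pass. In tagged cells the log2 IP to input ratio differed by -1.364 for Ago1, -1.175 for Ago2 and -1.213 for Ago3 (edgeR adjusted p 2.8e-07, 2.26e-05 and 5.04e-06), where 44.2% of genes differed. Both fractions enter these ratios. Mean tagged input was 66.7 CPM in experiment 1 and 94.0 in experiment 2 for Ago1, 263.8 and 352.8 for Ago2, and 12.4 and 18.5 for Ago3. Mean tagged IP was 862.8 and 505.5 CPM for Ago1, 1307 and 828.3 for Ago2, and 49.5 and 34.3 for Ago3. In Trim71KO cells it differed by -0.7548 for Ago1, -0.7058 for Ago2 and -0.6333 for Ago3 (edgeR adjusted p 0.00347, 0.0156 and 0.02), where 20.1% did. In untagged cells only Ago3 among the 4 members differed, by -0.7226 (edgeR adjusted p 0.0251), where 5.51% of genes did. With library size alone that value was -0.419 (edgeR adjusted p 0.0954) and Ago1 passed instead, at 0.471 (edgeR adjusted p 0.0383), where 28.9% of genes differed. No explanation was tested.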

How the results depend on the processing

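Across 744 alternative values for the members' comparisons, 699 kept their direction and their side of the threshold, 16 lost their call, 11 gained one and 18 changed sign. For 567 values of IP to input ratios, shares, summed levels and differences between experiments the numbers were 533, 27, 5 and 2. Shares and summed levels have no call, and theirs were counted among the 533 when within 1 SD of the main value. A change of their sign was not counted, so the 2 sign changes belong to the ratios and differences between experiments alone. Tag-specific enrichment of all 4 members, the fall of Ago2 and the rise of Ago1 RNA in Ago2KO, and the enrichment changes of Ago1 and Ago3 in Trim71KO of experiment 1 kept their calls under every alternative run. Log2 values that changed a call or sign are given here or beside the result itself, and their causes were not tested. RLE size factors gave -0.40 for Ago1 RNA in tagged against untagged cells of experiment 1, which was then no longer called. Library size alone gave -0.055 for Ago4 RNA in the same comparison, 0.42 for Ago3 RNA in Trim71KO of experiment 1 (called), -0.016 for Ago3 RNA in Ago2KO, -0.25 for Ago1 RNA in Trim71KO against Ago2KO (called), 0.22 for the IP to input ratio of Ago3 in Trim71KO of experiment 2 (not called, edgeR adjusted p 0.106), -0.58 for the difference of Ago3 between experiments in Trim71KO RNA (called, edgeR adjusted p 0.0264) and 0.029 for the difference of Ago4 between experiments in tagged against untagged RNA. The replicate block within fraction gave -0.073 for Ago4 RNA in tagged against untagged cells of experiment 1, 0.26 for Ago1 RNA in Trim71KO of experiment 2 (called) and -0.22 for Ago1 RNA in Trim71KO against Ago2KO (called), and it changed no other call of RNA level or enrichment. A fit of the compared groups alone gave -0.44 for Ago1 RNA and -0.0072 for Ago4 RNA in tagged against untagged cells of experiment 1, 0.26 for Ago1 RNA in Trim71KO of experiment 2 (called), -0.20 for Ago1 RNA in Trim71KO against Ago2KO (called) and -0.61 for Ago1 enrichment in Ago2KO (not called). Leaving out 1 library at a time gave, for RNA in tagged against untagged cells of experiment 1, -0.59 to -0.26 for Ago1, -0.69 to -0.22 for Ago2 and -0.68 to 0.27 for Ago4, and in experiment 2, -0.098 to 0.12 for Ago3 and -0.21 to 0.092 for Ago4. For RNA in Trim71KO of experiment 1 it gave -0.041 to 0.43 for Ago2, 0.25 to 0.54 for Ago3 and 0.49 to 1.44 for Ago4, and in Ago2KO -0.052 to 0.11 for Ago3 and -0.34 to 0.054 for Ago4. For enrichment it gave -0.32 to 0.15 for Ago2 in Trim71KO of experiment 1, -0.74 to -0.44 for Ago1 and -0.82 to -0.57 for Ago3 in Ago2KO, and 0.14 to 0.40 for Ago1 in Trim71KO against Ago2KO, and the IP to input ratio of Ago4 in untagged cells of experiment 1 was -0.12 to 1.09. A group left with 1 library fewer was assumed to vary like the others. Depth limits Ago4 most, with 4 to 75 counts a library. Outside tagged and Trim71KO libraries and the tagged input and IP of experiment 2, replicate numbers did not reach an r above 0.1 in all 3 pairs. Some of these samples still deviated together in part. For tagged and Ago2KO libraries of experiment 2, r was 0.58, 0.063 and 0.42 in IP and 0.22, 7.4e-04 and 0.21 in input. For tagged and Trim71KO IP of experiment 1 it was 0.35, 0.19 and -0.061. Whether the numbers pair those samples is not settled.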
